A study of Rattus norvegicus with 32 samples.

Results

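Genes of mitosis and DNA replication were followed in the liver and small intestine of lactating rats. The list held 47 gene symbols, and 34 of them had a row of their own on the array, out of 13215 named genes and 19434 transcript clusters (the array's unit for 1 gene) in all. The symbols were matched to the probe annotation, and each of the 34 members matched 1 row. The other 13 symbols (Ccnb2, Birc5, Kif11, Kif23, Nusap1, Ndc80, Mcm3, Mcm4, Mcm6, Rrm1, Rrm2, Anln and Nek2) were not analysed here, Nek2 because its row lists several genes.

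Sprague-Dawley rats at day 10 to 11 of lactation were compared with age-matched virgin controls, in liver, duodenum, jejunum and ileum. Each state had 16 rats, and the RNA of 4 rats made 1 pool, so that each of the 8 groups had 4 pools and 32 Affymetrix Rat Exon 1.0 ST arrays were run. The same rats made a pool in every tissue, all rats were killed at hour 16, and litters were culled to a similar size. The labels call the samples homogenates of whole tissue, while the study's methods describe scraped mucosa for the intestine. Lactating and virgin rats differed in past pregnancy and in suckling together, and these cannot be told apart.

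A dividing cell copies its DNA in S phase and separates the copies in mitosis. The Mcm helicase, loaded by Cdc6 and Cdt1, opens the DNA and Pcna clamps the polymerase to it. Cyclins with Cdk1 then drive entry into mitosis, kinases of the Aurora, Plk1 and Bub1 families watch over the attachment of chromosomes to the spindle, and Cdc20 and Ube2c direct the destruction of cyclins that ends it. Most of these genes are transcribed mainly in cycling cells, which in the small intestine lie in the crypts, while adult hepatocytes are mostly quiescent.

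Values are log2 signals as deposited, normalized by RMA (background correction, quantile normalization and a summary of the probes of a gene), so that a difference of 1 means the signal is 2 times as high. Array medians lay between 4.68 and 4.87, and a value under the median could not be told from background here. Signals of different genes depend on their probes, so levels are compared between tissues and states and not between genes. Marker genes matched the tissue labels. The summed signal (log2 of the sum) of 5 hepatocyte markers was 15.57 to 15.75 in liver and at most 7.88 in intestine, and that of the ileal enterocyte markers Fabp6 and Slc10a2 was 13.80 to 14.32 in ileum. A jejunal array stood apart: the ileal markers reached 10.55 in control pool 1, against 6.14 to 7.34 in the other 7 jejunal pools. Since the RNA of many cells was measured together, more cycling cells and more of each transcript per cycling cell cannot be told apart in any result.

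The level of the members followed the tissue first. In liver all 34 members were lower than in the mean of the 3 intestinal segments by limma's moderated test (adjusted p under 0.05 over all 19434 clusters), where 27.5% of all clusters were called lower. The median difference, liver minus intestine and averaged over the states, was -2.14 on the log2 scale, against 0.00 over all clusters. Top2a, the topoisomerase that untangles chromosomes, averaged 3.83 in liver, against 7.98 in duodenum, 6.41 in jejunum and 8.61 in ileum (difference -3.84 ± 0.09 SE). Ccna2 and Mki67, a cyclin of S phase and a coat protein of mitotic chromosomes, differed by -3.56 ± 0.14 and -3.45 ± 0.11. At the other end Mcm7 differed by -0.26 ± 0.09 (adjusted p = 0.0178), Mcm2 by -0.49 ± 0.07 and Ube2c by -0.57 ± 0.11.

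By role, the 2 chromosome structure genes had a median difference of -3.64, the 5 cyclin and Cdk1 genes -2.67, the 4 kinetochore genes -2.40, the 6 spindle and cytokinesis genes -2.36 and the 8 mitotic kinases -2.33. The 6 licensing and replication fork genes had a median of -0.88, and Tyms, which makes thymidylate for DNA, differed by -0.62 ± 0.09. Averaged over the states, 5 of 8 mitotic kinases, 4 of 6 spindle genes, 3 of 4 kinetochore genes, 2 of 5 cyclin and Cdk1 genes, 2 of 2 chromosome structure genes and 1 of 6 replication genes lay below the array median in liver. Where the liver value could not be told from background, the difference is a bound, so its size cannot be compared between genes or roles.

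**Figure D1:**
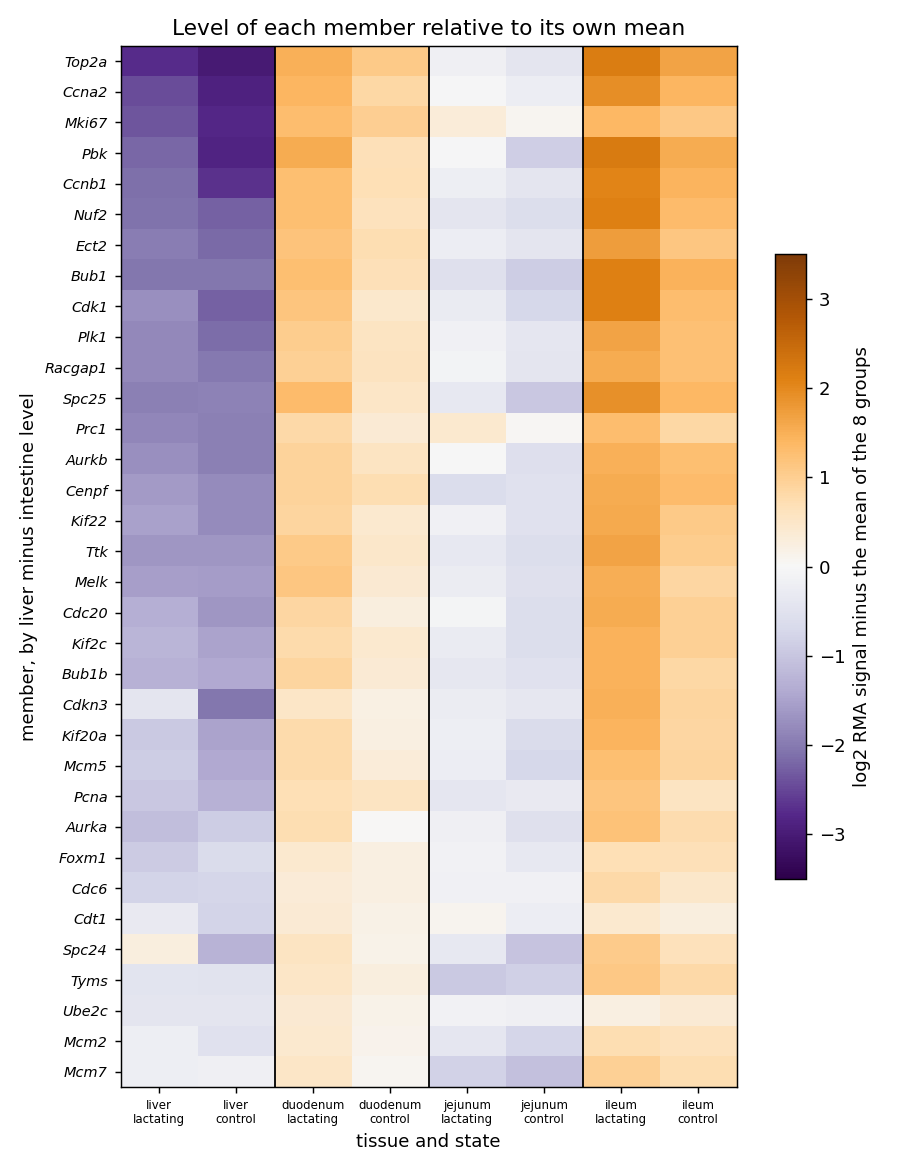
Level of the 34 members (rows, ordered by liver minus intestine) in the 8 groups (columns, lactating left of control in each tissue), as log2 RMA signal minus the mean of the member over the 8 groups (mean of 4 pools per group). The liver columns are lowest at the top of the plot (Top2a, Ccna2, Mki67), and the column of lactating ileum is the highest for all members but Ube2c, whose highest group was the duodenum of lactating rats.

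Along the intestine the members were lowest in the jejunum and highest in the ileum. The order ileum, duodenum, jejunum, liver held for 30 members, and in Spc24, Mcm2, Mcm7 and Tyms the jejunum was below the liver. All 34 members were higher in duodenum than in jejunum (12.9% of all clusters, median difference 1.04, range 0.34 to 1.67), and all 34 were lower in jejunum than in ileum (25.0% of all clusters, median -1.64, range -2.50 to -0.41). Between duodenum and ileum 30 members were lower in duodenum (20.0% of all clusters, median -0.60). Mki67 (-0.09), Pcna (-0.24), Cdt1 (-0.07) and Ube2c (-0.02) were not called between these 2 segments. With lactating pools alone the counts were 33, 32, 33 and 22 of 34, and with control pools alone 33, 31, 33 and 26, for liver against intestine, duodenum against jejunum, jejunum against ileum and duodenum against ileum. The share of all clusters called with the pools of a single state is not given here.

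Against this background the state of the rat made a smaller difference of the same sign in most members. The mean over the 34 members in liver was 4.89, 4.85, 4.74 and 4.84 in lactating pools 1 to 4, against 4.59, 4.53, 4.61 and 4.43 in control pools 1 to 4. In duodenum it was 7.0, 7.49, 7.07 and 6.81 in lactating pools, against 6.74, 6.76, 6.61 and 6.45 in control pools. In these 2 tissues the lowest lactating pool was above the highest control pool.

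In jejunum the mean was 6.35, 5.93, 6.08 and 5.49 in lactating pools, against 6.08, 5.51, 5.67 and 5.43 in control pools, and the 2 states overlapped. In ileum it was 7.60, 7.59, 7.71 and 7.66 in lactating pools, against 7.09, 7.29, 7.13 and 7.27 in control pools, with no overlap. Compared number by number, the lactating pool was above the control pool in 16 of 16 pairs, by 0.06 to 0.74, where the mean over all clusters differed by -0.05 to 0.09. In liver, duodenum and ileum the sign of every pair follows from the lack of overlap, whatever the pairing. The 4 tissues of a pair came from the same rats, so these are not 16 independent pairs, and no p is given for a mean over the members.

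**Figure D2:**
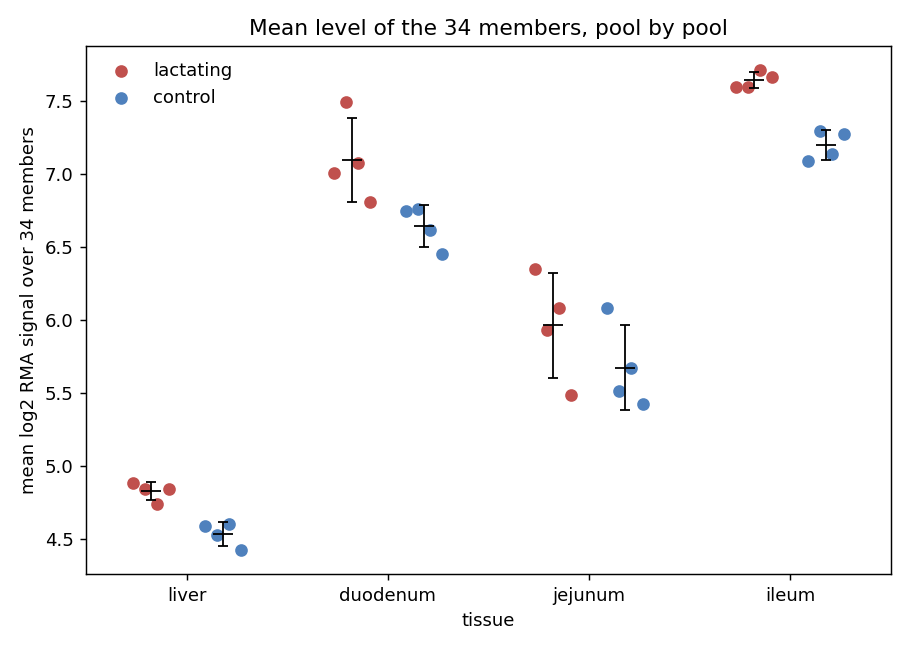
Mean log2 RMA signal over the 34 members (vertical axis) in each of the 4 pools per group (points, in the order of pool number from left to right), for lactating (red) and control (blue) rats in 4 tissues; bars are the mean and SD of 4 pools. The states do not overlap in liver, duodenum and ileum, and they overlap in jejunum.

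The difference in single members was 0.24 in the median in liver, 0.45 in duodenum, 0.28 in jejunum and 0.49 in ileum, against 0.01, 0.04, 0.01 and 0.02 over all clusters. It was above 0 in 27 of 34 members in liver (52.3% of all clusters), 34 in duodenum (59.6%), 31 in jejunum (53.0%) and 33 in ileum (53.9%), and in all 4 tissues in 24 members (15.1%). The mean of the 4 tissues was above 0 in 34 of 34 (58.4%). All 4 lactating pools exceeded all 4 control pools in 10 members in liver (2.56% of all clusters), 11 in duodenum (3.80%), 1 in jejunum (Prc1; 2.59%) and 18 in ileum (3.48%). No member had all lactating pools below all control pools in any tissue (2.65, 1.98, 2.78 and 4.03% of all clusters in liver, duodenum, jejunum and ileum).

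Averaged over the 4 tissues, 13 of 34 members rose in lactating rats (adjusted p under 0.05 by limma), where 0.957% of all clusters rose, and none fell (1.55% of all clusters). They were Pbk, Spc24, Cdkn3, Cdk1, Kif20a, Cdc20, Ccnb1, Mcm5, Melk, Ect2, Prc1, Kif2c and Bub1b. The study had already reported Pbk and Kif20a as increased in all 4 tissues of these arrays, by unadjusted p. The members were chosen with earlier results known, so the share called is not that of an independent list. The median difference over the 34 members was 0.36, against 0.02 over all clusters. With the replicate number added to the model 28 members rose, where 9.31% of all clusters did, and the 13 were among them. That term pairs the states by a likeness of pools seen in these same data, not by the labels. The pool correlation in that fit was -0.0436, so the 4 tissues of a pool were treated as if independent. Its p-values over the tissues may therefore be too small. The study's own mixed model shares no variance between genes and sets the state against each gene's own spread between pools. The limma fit instead used 1 pool correlation (0.163) for all genes. The mixed model called 0 members after adjustment (14 clusters in all), with adjusted p = 0.446 for Spc24 and 0.282 for Cdkn3. At unadjusted p under 0.05 it had 25 members higher (6.04% of all clusters) and none lower. The limma count of 13 depended on single pools: it was 3 without control pool 2 and without control pool 3, 4 without control pool 4 and without lactating pool 2, and 2 without lactating pool 3. With a group mean of at least 6 the pool correlation was 0.364, and 3 of 31 members were called.

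**Figure D3:**
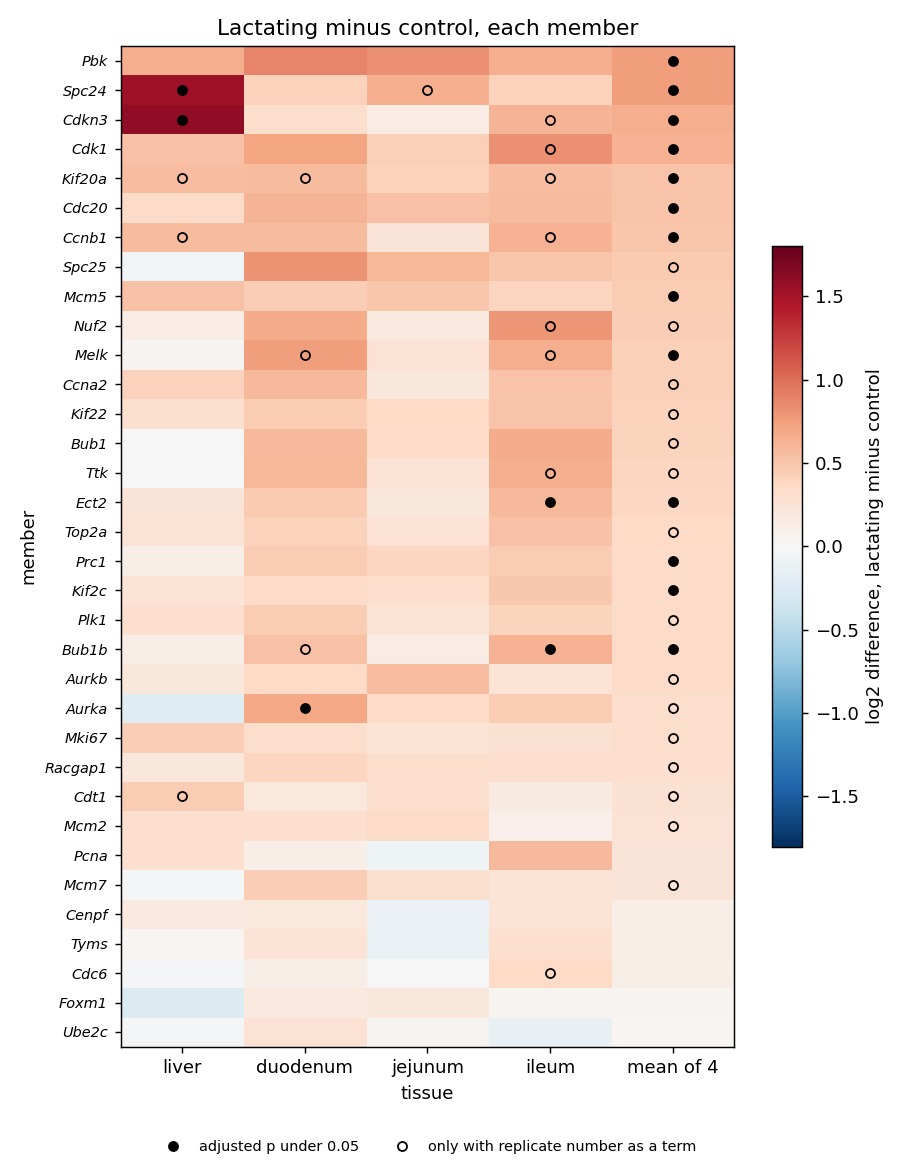
Lactating minus control (colour, log2 scale) for the 34 members (rows, ordered by the mean of the 4 tissues) in each tissue and as the mean of the 4 (columns). Filled circles mark adjusted p under 0.05 by limma and open circles those that pass only with the replicate number as a term; the darkest cells are Cdkn3 (1.59) and Spc24 (1.52) in liver.

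Of the cyclins, Cdk1 and their regulators, Cdkn3 had the largest difference in a single tissue. Cdkn3 encodes a phosphatase that removes the activating phosphate of cyclin-dependent kinases. In liver its signal was 6.51, 6.44, 6.23 and 5.98 in lactating pools 1 to 4, against 4.66, 5.02, 4.59 and 4.52 in control pools. Every lactating pool was above every control pool. Cdkn3 rose by 1.59 ± 0.21 on the log2 scale in liver (3.01-fold, adjusted p = 1.66e-05), 1 of 2 members called there, where 0.715% of all clusters rose. The mean of the control livers lay just under the array median, so this difference and its fold are set against a level that could not be told from background.

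In the intestine the difference in Cdkn3 was smaller. Its signal in ileum was 8.38, 7.95, 8.54 and 8.0 in lactating pools, against 7.91, 7.78, 7.46 and 7.27 in control pools, which did not overlap (0.61 ± 0.21, adjusted p = 0.178, 0.0126 with the replicate number as a term). In duodenum it differed by 0.31 ± 0.21 and in jejunum by 0.13 ± 0.21, with overlapping pools in both. The difference in liver exceeded the mean difference of the 3 segments by 1.24 ± 0.22 (adjusted p = 0.00106), where 2.05% of all clusters were called for that comparison, and this value too rests on the control livers. The liver of lactating rats reached 6.29 ± 0.24 (SD, n = 4), against 4.7 ± 0.22 in control liver, while jejunum held 6.48 ± 0.46 in lactating and 6.36 ± 0.38 in control rats.

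Ccnb1, the cyclin that activates Cdk1 at the entry into mitosis, rose over the tissues by 0.50 ± 0.13 (adjusted p = 0.0295). In liver it was 5.54, 5.72, 5.47 and 5.28 in lactating pools, against 4.87, 5.16, 4.86 and 4.82 in control pools, and in ileum 9.84, 9.67, 9.82 and 9.42 in lactating pools, against 9.05, 9.23, 9.02 and 8.92 in control pools. The states did not overlap in either tissue. Neither difference (0.57 ± 0.21 in liver and 0.63 ± 0.21 in ileum) was called alone (adjusted p = 0.2 and 0.16), and both were with the replicate number as a term (adjusted p = 0.0338 and 0.0203). Control pool 2 was the highest control liver for Ccnb1.

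Cdk1 itself, shown here after its values were seen, rose over the tissues by 0.62 ± 0.17 (adjusted p = 0.0464, a call lost in 7 of 8 fits that left out 1 pool). It had the largest difference of any member in ileum. There it was 7.98, 8.20, 8.30 and 7.84 in lactating pools, against 7.21, 7.63, 7.43 and 6.78 in control pools (0.82 ± 0.28, adjusted p = 0.182, 0.0266 with the replicate number as a term). In liver it was 4.54, 4.17, 4.39 and 3.82 in lactating pools, against 3.54, 3.72, 3.78 and 3.75 in control pools, all under the array median. Lactating pools lay above control pools in both tissues. Foxm1, a transcription factor of late cell cycle genes, differed by -0.25 ± 0.15 in liver and 0.05 ± 0.09 over the tissues (adjusted p = 0.56 and 0.901). In liver Foxm1 was 4.84, 5.32, 5.01 and 5.08 in lactating pools, against 5.60, 5.18, 5.31 and 5.18 in control pools, which overlapped.

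Among the kinetochore genes Spc24 stood apart from its partners. Spc24, Spc25, Nuf2 and Ndc80 form the complex that ties the kinetochore to spindle microtubules. Spc24 in liver was 7.58, 7.48, 7.34 and 6.45 in lactating pools, against 5.88, 5.86, 5.65 and 5.41 in control pools. No pools overlapped, and Spc24 rose by 1.52 ± 0.29 in liver (2.86-fold, adjusted p = 0.00254), the other member called there. Pool 4 was the lowest for Spc24 in all 8 groups.

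Spc25 in liver was 4.64, 3.96, 3.37 and 4.03 in lactating pools, against 4.00, 4.03, 4.25 and 3.94 in control pools (-0.05 ± 0.42), and Nuf2 was 3.29, 2.97, 3.21 and 3.45 in lactating pools, against 3.30, 3.02, 3.12 and 2.92 in control pools (0.14 ± 0.23). Both overlapped between states and lay under the array median, so a difference in them could have been hidden by background. Outside the liver Spc24 differed by 0.42 ± 0.29 in duodenum, 0.66 ± 0.29 in jejunum and 0.41 ± 0.29 in ileum. The jejunal difference passed with the replicate number as a term (adjusted p = 0.0212), and was the only member call in jejunum. The difference in liver minus that in intestine was 1.02 ± 0.31 (adjusted p = 0.0863, 0.00189 with the replicate number as a term, where 2.31% of all clusters were called).

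Genes next to these on the chromosome were not called. In GRCr8 gene order Cdkn3 lies between Bmp4, which differed in liver by -0.03 ± 0.23, and Cnih1, which differed by 0.34 ± 0.15 (adjusted p = 0.326). Dock6, at 2 genes from Spc24, differed by 0.12 ± 0.09 (adjusted p = 0.69). In liver no gene of the marker lists for other cell types was called in either direction. The summed pancreatic acinar signal was 7.15 to 7.43 in lactating livers and 8.12 to 8.35 in control livers, and the Kupffer cell and macrophage sum was 10.99 to 11.48 in lactating and 10.86 to 11.67 in control livers. Their part in the result was not tested.

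Over the 8 mitotic kinases the median difference was 0.08 in liver, 0.60 in duodenum, 0.30 in jejunum and 0.64 in ileum, and 0, 1, 0 and 1 of them were called. No test between tissues was made for the group. Since 5 of the 8 lay below the array median in liver, a difference there could have been hidden by background, and Aurka alone of them was called for liver against intestine. Aurka, the kinase of centrosome maturation and spindle assembly, is shown after its values were seen. In duodenum Aurka was 7.83, 8.34, 7.62 and 8.05 in lactating pools, against 7.25, 7.50, 7.16 and 7.16 in control pools. The states did not overlap, and Aurka rose by 0.69 ± 0.16 (adjusted p = 0.0293), the only member called in duodenum, where 0.365% of all clusters rose.

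In liver Aurka was 6.43, 5.94, 5.96 and 6.22 in lactating pools, against 6.28, 6.32, 6.61 and 6.24 in control pools (-0.22 ± 0.16), with overlap. The difference in liver minus that in intestine was -0.72 ± 0.17 (adjusted p = 0.0155), opposite in sign to that of Cdkn3. Aurka and Cdkn3 were the 2 members whose difference varied among the 4 tissues by limma's F test (adjusted p = 0.0486 and 0.00466, 2.05% of all clusters called). With the replicate number as a term the F test called Cdkn3 and Spc24 and lost Aurka (adjusted p = 0.0795, 2.36% of all clusters called). The duodenal call of Aurka was lost without lactating pool 2 or 4 or control pool 1, 3 or 4 (differences 0.57 to 0.69), and its call for liver against intestine was lost without lactating pool 2 or 3 or control pool 3 (-0.70 to -0.62) and in the study's mixed model.

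Bub1b, a checkpoint kinase relative that holds back anaphase, rose in ileum by 0.62 ± 0.15 (adjusted p = 0.0317), where 0.479% of all clusters rose. Its signal there was 6.01, 5.85, 5.95 and 5.94 in lactating pools, against 5.26, 5.51, 5.20 and 5.27 in control pools. In duodenum it was 5.23, 5.73, 5.38 and 5.07 in lactating pools, against 4.99, 4.75, 4.83 and 4.74 in control pools (0.53 ± 0.15, adjusted p = 0.132, 0.0468 with the replicate number as a term). No pools overlapped in either segment. Bub1b was not called in jejunum (0.13 ± 0.15) or in liver (0.12 ± 0.15), and it lay under the array median in both.

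Melk, a kinase of dividing progenitor cells, rose over the tissues by 0.43 ± 0.11 (adjusted p = 0.0379). In duodenum it was 5.69, 6.32, 5.91 and 5.76 in lactating pools, against 5.20, 5.16, 5.14 and 5.17 in control pools, and in ileum 6.14, 6.30, 6.41 and 6.39 in lactating pools, against 5.43, 5.74, 5.55 and 5.89 in control pools. The states were apart in both segments and the 4 control duodenal pools were close to each other. Both differences passed with the replicate number as a term only (0.75 ± 0.19, adjusted p = 0.0584 and 0.0272 with it, in duodenum, and 0.66 ± 0.19, adjusted p = 0.0795 and 0.0374 with it, in ileum).

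Pbk, a mitotic kinase of the MAPKK family, had a mean difference as large as that of Spc24 (0.75 ± 0.16, adjusted p = 0.0102). In duodenum it was 7.79, 8.27, 7.69 and 7.25 in lactating pools, against 7.10, 6.84, 6.85 and 6.69 in control pools. In jejunum it was 6.64, 5.98, 6.33 and 5.65 in lactating pools, against 6.32, 5.14, 5.01 and 4.86 in control pools. Duodenal pools did not overlap, while in jejunum control pool 1, the array with ileal markers, lay among the lactating pools.

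Ileal Pbk was 8.31, 8.26, 8.48 and 8.55 in lactating pools, against 7.50, 7.68, 7.63 and 8.20 in control pools, and liver Pbk was 4.14, 3.71, 3.80 and 4.29 in lactating pools, against 3.45, 3.20, 3.72 and 2.96 in control pools. The states were apart in ileum and touched in liver at values under the array median, and Pbk differed by 0.65 ± 0.27 in each. The remaining kinases Bub1, Ttk, Plk1 and Aurkb differed over the tissues by 0.40, 0.38, 0.35 and 0.34 and were called with the replicate number as a term only (adjusted p = 0.104, 0.0794, 0.058 and 0.118 without it). In liver Bub1 and Ttk differed by 0.00 ± 0.21 and -0.01 ± 0.19.

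All 6 spindle and cytokinesis genes had a positive difference in every tissue, and 4 of them rose over the tissues. Kif20a, the kinesin that carries regulators to the central spindle, had the smallest p of any member over the tissues (0.52 ± 0.09, adjusted p = 0.00219). In liver it was 4.08, 4.25, 3.96 and 4.16 in lactating pools, against 3.75, 3.48, 3.53 and 3.49 in control pools, without overlap though under the array median. In duodenum it was 5.53, 6.24, 5.81 and 5.80 in lactating pools, against 5.12, 5.35, 5.26 and 5.38 in control pools. These were apart as well.

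In jejunum Kif20a was 5.0, 4.92, 4.83 and 4.61 in lactating pools, against 4.74, 4.20, 4.39 and 4.36 in control pools, and in ileum 6.17, 6.49, 6.54 and 6.71 in lactating pools, against 5.57, 6.32, 5.83 and 5.99 in control pools. Only control pool 1 in jejunum and control pool 2 in ileum reached into the lactating range. The differences by tissue, in liver, duodenum, jejunum and ileum, were 0.55, 0.57, 0.42 and 0.55, each ± 0.16.

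Ect2, which activates RhoA for the contractile ring, rose in ileum by 0.58 ± 0.15 (adjusted p = 0.047) and over the tissues by 0.37 ± 0.09 (adjusted p = 0.0236). In ileum it was 7.14, 7.09, 7.35 and 7.54 in lactating pools, against 6.65, 6.64, 6.59 and 6.93 in control pools, and in duodenum 6.73, 6.85, 6.71 and 6.67 in lactating pools, against 6.43, 6.14, 6.21 and 6.29 in control pools. Liver Ect2 was 3.49, 3.71, 3.56 and 3.64 in lactating pools, against 3.36, 3.34, 3.4 and 3.36 in control pools, a narrow gap far under the array median. The pools of the 2 states were apart in these 3 tissues.

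Prc1, which bundles the microtubules of the central spindle, rose over the tissues by 0.35 ± 0.09 (adjusted p = 0.0301) and was the only member whose pools did not overlap in jejunum. There it was 7.26, 7.09, 7.05 and 7.06 in lactating pools, against 6.65, 6.82, 6.72 and 6.71 in control pools. Kif2c, a kinesin that shortens microtubules, rose over the tissues by 0.35 ± 0.09 (adjusted p = 0.0393). In ileum Kif2c was 6.37, 6.62, 6.81 and 6.89 in lactating pools, against 5.89, 6.48, 6.07 and 6.31 in control pools, with control pool 2 inside the lactating range.

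Of the 2 genes that act with the anaphase promoting complex, 1 was called, and no test between them was made. Cdc20, its activator, rose over the tissues by 0.51 ± 0.13 (adjusted p = 0.0371). In ileum Cdc20 was 8.15, 8.14, 8.31 and 8.06 in lactating pools, against 7.30, 7.75, 7.84 and 7.49 in control pools, and in jejunum 6.89, 6.76, 6.74 and 5.80 in lactating pools, against 6.44, 5.81, 6.0 and 5.83 in control pools. The jejunal overlap came from lactating pool 4 alone, which was the lowest of the 8. Ube2c, the ubiquitin-conjugating enzyme of the complex, had the smallest difference of all members (0.04 ± 0.12, adjusted p = 0.942). In ileum it was 4.87, 4.4, 4.71 and 4.73 in lactating pools, against 4.57, 4.92, 4.79 and 4.95 in control pools, with most pools near the array median. The mean of Ube2c lay under the array median in every group but lactating duodenum, so a difference could have been hidden by background.

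Mki67 and Top2a, the usual tissue markers of proliferation, had positive differences without a call. Mki67 in duodenum was 7.81, 8.07, 7.61 and 7.85 in lactating pools, against 7.83, 7.50, 7.25 and 7.51 in control pools, and in ileum 8.15, 7.74, 7.46 and 8.26 in lactating pools, against 7.78, 7.57, 7.14 and 8.05 in control pools. The states overlapped in both, yet in ileum each lactating pool was above the control pool of its number. Over the tissues Mki67 differed by 0.31 ± 0.13 (adjusted p = 0.231, 0.0138 with the replicate number as a term). Top2a in ileum was 8.83, 8.68, 8.79 and 9.23 in lactating pools, against 8.27, 8.33, 8.22 and 8.58 in control pools, with no overlap, and it differed over the tissues by 0.36 ± 0.11 (adjusted p = 0.074, 0.00151 with that term).

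The 6 genes of replication licensing and the fork had smaller differences, with a median of 0.25 over the tissues. Mcm5, a subunit of the helicase, was the one called (0.46 ± 0.13, adjusted p = 0.0433). In liver Mcm5 was 6.04, 5.83, 5.48 and 6.23 in lactating pools, against 5.38, 5.57, 5.20 and 5.31 in control pools, and in jejunum 6.64, 6.66, 6.63 and 6.26 in lactating pools, against 6.51, 5.78, 5.86 and 6.06 in control pools. In each tissue 1 lactating pool lay below the highest control pool. Mcm2 and Mcm7, of the same helicase, differed by 0.26 ± 0.08 and 0.23 ± 0.10 and were called with the replicate number as a term only (adjusted p = 0.0739 and 0.301 without it).

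Cdc6, which loads the helicase, differed in ileum by 0.36 ± 0.10 (adjusted p = 0.0874, 0.0274 with the replicate number as a term), with 5.75, 5.87, 6.08 and 5.92 in lactating pools, against 5.45, 5.66, 5.47 and 5.61 in control pools. In the other tissues Cdc6 differed by -0.04 in liver, 0.11 in duodenum and 0.01 in jejunum, each ± 0.10. Cdt1, its partner in loading, differed in liver by 0.45 ± 0.14 (adjusted p = 0.105, 0.0369 with that term). Tyms differed over the tissues by 0.12 ± 0.10 (adjusted p = 0.693).

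Pcna varied more between pools than between states. In duodenum it was 9.88, 9.96, 9.79 and 8.13 in lactating pools, against 9.81, 9.47, 9.60 and 8.44 in control pools, and in liver 8.50, 8.12, 7.88 and 6.61 in lactating pools, against 7.98, 7.44, 8.22 and 6.26 in control pools. Pool 4 was the lowest in all 8 groups for Pcna, Spc24 and Ccnb1 and in 7 of 8 for Cdk1 and Cdkn3, and these were the 5 members lowest there in 7 or more groups (14.7% of members, 6.85% of all clusters). The difference in Pcna over the tissues was 0.23 ± 0.25 (adjusted p = 0.771), and its SE was 0.08 with the replicate number as a term (adjusted p = 0.0545).

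**Figure D4:**
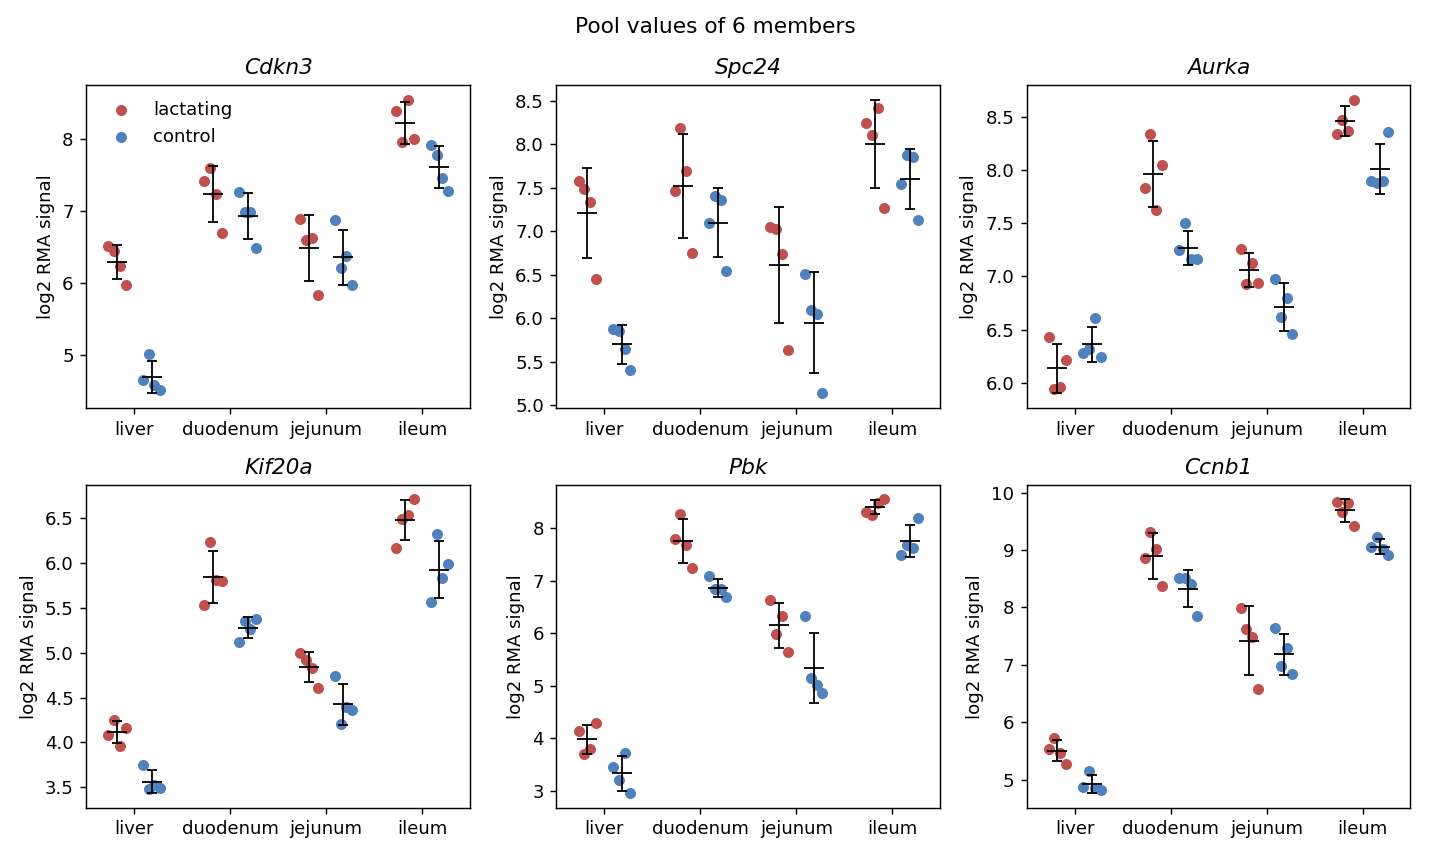
Log2 RMA signal (vertical axis, a separate range in each panel) of 6 members in each pool (points, pool 1 to 4 from left to right), lactating (red) left of control (blue) in 4 tissues; bars are the mean and SD of 4 pools. Cdkn3 and Spc24 show their widest gap in liver, Aurka shows a gap between the states in duodenum only, and pool 4 is the lowest of its group in every group for Spc24 and Ccnb1.

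Pools of 1 group moved together across the members in the upper intestine. Lactating pool 2 had the highest duodenal value of its group in 33 of 34 members (39.7% of all clusters), and lactating pool 4 had the lowest jejunal value in 29 (30.9%). Jejunal pool 1 had the highest value in 27 members in lactating rats (22.5% of all clusters) and in 32 members in control rats (24.2%). The array with the ileal markers is the control one of these 2, and the median member difference in jejunum was 0.40 without control pool 1, with 1 member called. Without lactating pool 2 the median in duodenum was 0.31 and no member was called there. In jejunum as a whole 0 members were called (0.345% of all clusters rose), 11 were higher at unadjusted p under 0.05 by limma (5.45% of all clusters) and 10 by the study's mixed model (5.46%), which called 0 as well, and 1 was called with the replicate number as a term (0.947% of all clusters).

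The replicate number as a term raised the counts of members called in the other tissues as well, to 5 in liver (1.64% of all clusters), 4 in duodenum (1.31%) and 10 in ileum (1.60%), all higher in lactating rats. In liver these were Kif20a, Cdkn3, Spc24, Ccnb1 and Cdt1, in duodenum Kif20a, Bub1b, Aurka and Melk, and in ileum Kif20a, Cdkn3, Ccnb1, Cdk1, Bub1b, Ttk, Melk, Nuf2, Cdc6 and Ect2. The calls of the model without the number were among them in every tissue. Single pools decided the counts in the intestine: in duodenum 0 members were called without lactating pool 2 or control pool 1, 3 or 4, and 3 and 4 without lactating pools 1 and 4, and in ileum 0 were called without lactating pool 3 or control pool 1, 3 or 4, 1 without lactating pool 4 or control pool 2, and 3 without lactating pool 1.

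Some markers of other cell types and of other segments differed with the state in the intestine. In duodenum all 6 pancreatic acinar markers fell in lactating rats, and their summed signal was 8.91, 12.29, 9.68 and 7.59 in lactating pools, against 14.38, 13.33, 14.62 and 14.04 in control pools. Slc10a2, the ileal bile acid transporter, rose in duodenum by 0.67 ± 0.15 (adjusted p = 0.0317), where the sum of both ileal markers was 7.14 to 8.27 in lactating and 6.53 to 7.19 in control rats. Slc40a1, the iron exporter on the duodenum list, rose in jejunum by 0.99 ± 0.19 (adjusted p = 0.00439), where the duodenum list summed to 11.26 to 11.57 in lactating and 10.11 to 10.61 in control rats. That sum is Slc40a1 again, since the other gene of the list with a row, Cckbr, averaged only 4.48 in duodenum of both states. Slc40a1 does not mark the duodenum alone: it averaged 11.11 in lactating and 11.44 in control liver, against 10.4 in control jejunum. Of the hepatocyte markers in jejunum, Ttr rose by 0.74 ± 0.17 and Alb, under the array median there, fell by 0.53 ± 0.12 (adjusted p = 0.0273 for both). The members differ in level between segments, and the part of these segment markers in the results was not tested.

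The summed signal of 6 crypt stem cell markers with a row was 10.01 to 10.41 in lactating and 9.71 to 10.06 in control duodenum, 9.17 to 9.65 in lactating and 8.96 to 9.55 in control jejunum, and 10.99 to 11.42 in lactating and 10.82 to 11.08 in control ileum. Compared number by number, it was higher in the lactating pool in 12 of 12 intestinal pairs, which share rats between segments. A log2 sum follows its strongest genes, and in ileum Olfm4 (10.76 in lactating and 10.31 in control rats) lay far above the others. The median difference of the 6 markers was 0.16 in duodenum, 0.28 in jejunum and 0.00 in ileum. None of the 6 was called in any tissue without the replicate number. Olfm4 differed by 0.85, 0.43 and 0.45 in duodenum, jejunum and ileum (each ± 0.33) and Smoc2 by 0.20, 0.44 and 0.10 (each ± 0.17). In the same order Ascl2 differed by 0.20, 0.10 and 0.06 (each ± 0.20). Axin2 differed by 0.13, 0.27 and -0.20 (each ± 0.13) and Cdca7 by 0.07, 0.30 and -0.06 (each ± 0.21). Rnf43, a target of Wnt signalling in crypts, differed by -0.06 in duodenum and -0.09 in jejunum. It was lower in ileum with the replicate number as a term (-0.45 ± 0.12, adjusted p = 0.0158).

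In ileum the Paneth and goblet cell sum was 13.89 to 14.11 in lactating and 13.29 to 13.60 in control rats, with 1 of 4 called higher. T cell sums overlapped between the states in every segment, while number by number they were lower in the lactating pool in 3 of 4 pairs in duodenum, 4 of 4 in jejunum and 4 of 4 in ileum. The part of these cells in the results was not tested.

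Of 70 other mitosis genes 53 had a row. In ileum 9 of these rose (0.479% of all clusters), none was called in liver, duodenum or jejunum (0.715, 0.365 and 0.345% of all clusters rose), and 8 rose over the tissues (0.957%). With the replicate number as a term 0 rose in liver, 5 in duodenum, 1 in jejunum, 15 in ileum and 35 over the tissues (1.64, 1.31, 0.947, 1.60 and 9.31% of all clusters). Their median difference was 0.09 in liver, 0.36 in duodenum, 0.13 in jejunum and 0.37 in ileum, against 0.01, 0.04, 0.01 and 0.02 over all clusters. Hmmr, a spindle assembly protein shown after its values were seen, rose in ileum by 1.01 ± 0.23 (6.37 in lactating and 5.36 in control rats, adjusted p = 0.0191). Cenpi was called there at 4.52 in lactating and 3.82 in control rats (adjusted p = 0.00749), both under the array median. Kif20b was called there at 5.08 in lactating and 4.32 in control rats (adjusted p = 0.00849), the control value under the median. The centromere gene Cenpk was called there at 4.74 in lactating and 3.91 in control rats (adjusted p = 0.00328), both under the array median, and Plk4, the kinase of centriole duplication, at 5.31 in lactating and 4.56 in control rats (adjusted p = 0.00352), the control value under it.

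Of 40 other DNA replication genes with a row, Gins1 (0.61 ± 0.15, adjusted p = 0.0238) and Gins2 (0.23 ± 0.06, adjusted p = 0.0423), parts of the replicative helicase, rose over the tissues and none was called in a single tissue. Of all clusters 0.957% rose over the tissues, and 0.715, 0.365, 0.345 and 0.479% rose in liver, duodenum, jejunum and ileum. With the replicate number as a term 1 rose in liver, 1 in duodenum, 1 in jejunum, 2 in ileum and 16 over the tissues (1.64, 1.31, 0.947, 1.60 and 9.31% of all clusters). Their median difference was 0.09 in liver, 0.27 in duodenum, 0.12 in jejunum and 0.20 in ileum.

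Of 26 genes of the G1 phase with a row, 2 were called in liver, 1 in ileum and none in duodenum or jejunum. Of all clusters 1.88, 1.28, 0.643 and 0.808% were called in these tissues in either direction. Ccne1, the cyclin that starts S phase with Cdk2, rose in liver by 0.95 ± 0.15 (5.55 in lactating and 4.60 in control livers, adjusted p = 0.000178), the control value being under the array median, and over the tissues by 0.47 ± 0.09 (adjusted p = 0.00338). Cdkn1a, the inhibitor p21 of cyclin-dependent kinases, fell in liver by 0.55 ± 0.14 (5.64 in lactating and 6.19 in control livers, adjusted p = 0.0325). In ileum Ccne2 rose by 0.71 ± 0.16 (adjusted p = 0.0156). With the replicate number as a term 1 gene of this list rose and 2 fell in liver, 0 were called in duodenum, 1 fell in jejunum, 1 rose and 1 fell in ileum, and 6 rose and 4 fell over the tissues (2.49, 1.16, 2.19 and 8.23% of all clusters fell in liver, jejunum, ileum and over the tissues). The shares of all clusters that rose were 1.64% in liver, 1.60% in ileum and 9.31% over the tissues. The median difference was 0.08 in liver, 0.10 in duodenum, 0.07 in jejunum and 0.05 in ileum.

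The promoters of late cell cycle genes often hold a CCAAT box and a cell cycle homology region (CHR), and both were searched on either strand as CCAAT and TTTGAA in the 250 bases before the start of each gene (RefSeq, GRCr8). The 2 motifs can share a base at their ends. Of the 34 members 27 had a promoter entry. CCAAT stood in 18 of them (66.7%), against 34.3% of 27457 promoters of all genes, TTTGAA in 10 (37.0%, against 16.0%), and both in 9 (33.3%, against 5.76%). Of the 12 members called over the tissues that had an entry, 9 held CCAAT and 5 held both.

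The promoters of the 2 members called in liver, Cdkn3 and Spc24, are shown with those of Cdk1, Ccnb1 and Kif20a, which were called over the tissues, as their motifs differ. Capitals mark CCAAT or ATTGG and TTTGAA or TTCAAA.

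Cdkn3, chr15:22502136-22502385, forward strand: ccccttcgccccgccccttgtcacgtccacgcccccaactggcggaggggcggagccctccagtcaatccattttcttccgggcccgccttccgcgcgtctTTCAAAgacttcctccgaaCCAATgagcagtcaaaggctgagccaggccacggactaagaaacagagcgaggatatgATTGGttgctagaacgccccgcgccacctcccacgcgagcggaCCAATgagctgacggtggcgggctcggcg
Spc24, chr8:28581300-28581549, reverse strand: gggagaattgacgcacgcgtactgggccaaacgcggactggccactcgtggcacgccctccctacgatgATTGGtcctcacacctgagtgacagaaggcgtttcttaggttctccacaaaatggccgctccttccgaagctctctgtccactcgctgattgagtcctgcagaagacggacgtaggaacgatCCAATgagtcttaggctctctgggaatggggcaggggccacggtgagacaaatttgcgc
Cdk1, chr20:19265043-19265292, forward strand: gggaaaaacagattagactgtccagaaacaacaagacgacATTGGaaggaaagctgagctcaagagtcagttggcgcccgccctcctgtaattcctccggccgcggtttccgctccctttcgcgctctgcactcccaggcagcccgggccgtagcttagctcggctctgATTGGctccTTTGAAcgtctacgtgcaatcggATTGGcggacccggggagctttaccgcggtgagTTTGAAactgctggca
Ccnb1, chr2:33655226-33655475, reverse strand: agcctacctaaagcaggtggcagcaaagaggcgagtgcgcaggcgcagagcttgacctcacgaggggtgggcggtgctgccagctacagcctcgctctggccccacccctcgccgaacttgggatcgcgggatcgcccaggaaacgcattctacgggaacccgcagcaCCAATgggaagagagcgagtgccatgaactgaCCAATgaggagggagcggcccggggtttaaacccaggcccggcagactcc
Kif20a, chr18:26504172-26504421, forward strand: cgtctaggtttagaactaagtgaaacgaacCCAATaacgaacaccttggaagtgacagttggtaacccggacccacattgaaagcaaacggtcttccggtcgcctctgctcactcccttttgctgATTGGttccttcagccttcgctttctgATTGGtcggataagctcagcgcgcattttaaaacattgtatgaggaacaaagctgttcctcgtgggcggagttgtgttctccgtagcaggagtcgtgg

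Cdkn3 and Cdk1 held both motifs, and Spc24, Ccnb1 and Kif20a held CCAAT without TTTGAA. A match is a description of these letters and no sign that a factor binds there.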

How the data were processed

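RNA pools were hybridised to 32 Affymetrix Rat Exon 1.0 ST arrays. The authors processed the arrays with RMA in Expression Console at the extended gene level and deposited log2 values for 19434 transcript clusters; the genome build and tool versions are not given in the sources used. Detection values were not used here, so levels under the array median may be background, and the number of arrays limits the precision. Rows were named through the platform annotation: 13327 clusters have 1 symbol, 620 have several and 5487 have none.

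The values were used as deposited. limma 3.58.1 (R 4.3.3, statmod 1.5.0) fitted a mean for each of the 8 groups with the pool as a random block (estimated correlation 0.163), with Benjamini-Hochberg adjustment across all clusters. Differences are lactating minus control with their standard error (SE), and a gene was called at adjusted p under 0.05. The fit was tested on simulated data. Pools of 1 state are separate sets of rats. The labels and the study's methods give no link between the numbers of the 2 states. Deviations of pools with the same number correlated between the states at 0.344, 0.154, 0.105 and 0.555 for numbers 1 to 4. For other numbers the range was -0.347 to 0.104, so only numbers 1 and 4 stood well apart from it. The numbers were taken to pair the pools from these same data. A fit with the replicate number as a term is given where it changes a call or a count, and its calls depend on that pairing. Its pool correlation was -0.0436, so it treats the tissues of a pool as if independent.

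The members, the other gene lists and the markers were chosen with earlier results of these data known. Pool values are given for Mki67, Top2a, Pcna, Pbk and Kif20a, for up to 12 members called by either fit in the order of their p over the tissues, and for the members with the 3 highest and 3 lowest differences. Aurka, Cdk1, Spc25 and Nuf2, and Hmmr of the other mitosis genes, were added after their values were seen. The part of this rule that ranks members by level was not used, since probe signals of different genes have no common scale. Alternatives were the study's mixed model, no pool block, single tissues, a group mean of at least 6, quantile normalization within tissue, median centring, array weights and leaving out each pool; leaving out both pools of number 4 was chosen after seeing the data. Promoters are from RefSeq (GRCr8).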

Additional observations from a re-analysis of the deposited data

Results flagged for a closer look

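Of 160 groups of 4 pools, those of 20 members, 9 held a pool whose gap to the nearest other pool was large for the range of its group (Dixon's test, which chance passes in about 1 group in 20). Lactating pool 4 was the low one in jejunum for Cdk1 (4.67, others 5.91 to 6.17), Cdc20 (5.80, others 6.74 to 6.89) and Mcm5 (6.26, others 6.63 to 6.66), and in duodenum for Pcna (8.13, others 9.79 to 9.96). Ube2c was low in lactating liver pool 1 (3.83, others 4.06 to 4.10). Among control pools, Ccnb1 was high in liver pool 2 (5.16, others 4.82 to 4.87), Prc1 was high in liver pool 1 (5.16, others 4.55 to 4.65), Mcm5 was low in ileum pool 1 (7.12, others 7.85 to 7.88) and Aurka was high in ileum pool 4 (8.36, others 7.88 to 7.90).

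The difference between lactating and control rats was larger in liver than in the mean of the intestinal segments for Cdkn3 (by 1.24, adjusted p = 0.00106) and smaller there for Aurka (-0.72, adjusted p = 0.0155), each by limma's test of that contrast. All 4 lactating livers were above all 4 control livers for Cdkn3, whose mean in control livers was just under the array median, while for Aurka 1 of 4 number pairs was higher in lactating livers.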

How the results depend on the processing

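The calls of Cdkn3 in liver and for liver against intestine held under every alternative run. Spc24 in liver lost its call with single tissues alone. The 4 level counts stayed within 1.5 times in every setting.

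The counts of members called for lactation moved most. With the replicate block they were 5 in liver, 4 in duodenum, 1 in jejunum, 10 in ileum and 28 over the tissues, against 2, 1, 0, 2 and 13 without it. With each tissue fitted alone they were 1 in liver and 0 in duodenum and in ileum. Without the pool as a block 2 members were called in duodenum, 25 over the tissues and 1 for the interaction. The study's mixed model called 1 in ileum and 0 over the tissues. With a group mean of at least 6, which left 31 members, 0 were called in ileum and 3 over the tissues. Normalization within tissue gave 4 in liver, 2 in duodenum, 7 in ileum and 1 for the interaction, median centring gave 2 in duodenum, and array weights gave 8 in duodenum, 5 in ileum, 20 over the tissues and 1 for the interaction. Without both pools of number 4, 0 were called in duodenum and in ileum. Beyond the fits with and without the replicate block, the share of all clusters called is not given for these settings or for pools left out. These counts show how the calls depend on the setting and are no result about the members. The causes were not tested.

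Leaving out 1 pool at a time gave 2 to 3 members called in liver, 0 to 4 in duodenum, 0 to 1 in jejunum, 0 to 3 in ileum, 2 to 18 over the tissues, 1 to 2 for the interaction and 1 to 3 for liver against intestine. The median difference ranged over 0.198 to 0.267 in liver, 0.307 to 0.519 in duodenum, 0.169 to 0.402 in jejunum, 0.421 to 0.511 in ileum and 0.348 to 0.391 over the tissues. Cdkn3 and Kif20a kept their call over the tissues without any 1 pool. Cdk1 and Kif2c lost theirs in 7 of the 8 fits, and Cdc20, Ccnb1 and Mcm5 in 6. Spc24, Melk, Prc1 and Bub1b lost theirs in 5, Ect2 in 4 and Pbk in 2. Without 1 pool, Pcna ranged from 0.59 down to -0.07 (reversed, without control replicate 4) and Foxm1 from 0.09 down to -0.02 (reversed, without lactating replicate 2), and Ube2c reversed to -0.01 with array weights, none of them called. With 4 pools per group, members under the array median in liver limit what could be seen there. The same holds to a lesser extent in jejunum, where 5 members in lactating and 7 in control rats averaged under it.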
